A study of Homo sapiens with 12 samples.

Results

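The 9 genes described here are the transcription factors SNAI1, SNAI2, TWIST1, TWIST2, ZEB1 and ZEB2 together with CDH1, CDH2 and VIM, the epithelial cadherin, the neural cadherin and the filament protein used most often as readouts of these factors. They were picked by name out of 24180 gene symbols in the count tables, and all 9 were found there. RNA was sequenced from 143B, a human osteosarcoma cell line derived from HOS cells, with 3 libraries in each of 4 groups. These were BSG, M-BSG (also labelled 5-MNP-BSG), M-BSG-Hot (also labelled 5-MNP-BSG (+)) and the control, NC. The series title speaks of borosilicate bioactive glass and of moderate magnetic hyperthermia. The labels give all 12 libraries a wild-type genotype and 1 shared treatment entry, which names a magnetothermal system containing 5-MNP-BSG and an alternating field given as 20A and 500H. They therefore do not say which group received which material, field, dose or exposure time, and a difference between groups is described below by group name alone. Separate cultures behind the libraries of a group are not stated either, so p-values measure only the spread between these libraries, which may be technical.

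SNAI, TWIST and ZEB proteins are DNA-binding factors that govern the change between epithelial and mesenchymal cell states. SNAI and ZEB proteins carry zinc fingers that bind E-box sequences, where they recruit corepressors and silence genes such as CDH1; TWIST proteins are basic helix-loop-helix factors that bind E-boxes as pairs with E proteins. Osteosarcoma is itself a tumour of mesenchymal origin, so its cells usually hold VIM and CDH2 and little CDH1 before any treatment.

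Library totals ranged from 34434993 to 38163152 counts. Levels are given as CPM, which puts libraries of unequal size on 1 scale with TMM factors, and as FPKM, which also divides by gene length, wherever genes are compared with each other. Of the osteoblast-lineage markers, 6 of the 8 found in the tables averaged at least 1 CPM in every group, and their summed level was 363 to 432 CPM over the 12 libraries. SPARC gave most of that sum, at group means of 329 to 363 CPM. SP7 had no more than 1 count and BGLAP no more than 5 in any library. SP7 had no count in NC and BGLAP none in M-BSG-Hot. BSG 1, M-BSG 1 and M-BSG-Hot 3 stood apart: ribosomal protein genes took 11.3%, 9.95% and 9.86% of their counts, against 7.55% to 9.18% in the other 9 libraries.

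SNAI1, which encodes the founding repressor of this group, was far higher in all 3 groups than in NC, and TWIST1 was higher in BSG and M-BSG. The other tested members, SNAI2, TWIST2, ZEB1, ZEB2, CDH2 and VIM, passed the test in none of the 6 comparisons, and CDH1 was too low to test. In BSG, 2 of the 8 tested members were called higher than NC (adjusted p under 0.05) and 0 lower, against 11.7% of all 15407 tested genes called, 5.50% higher and 6.22% lower. In M-BSG, 2 of 8 were higher and 0 lower, against 6.35% of all tested genes called, 3.22% higher and 3.13% lower. In M-BSG-Hot, 1 of 8 was higher and 0 lower, against 4.91% of all tested genes called, 1.40% higher and 3.51% lower. The 3 comparisons share the NC libraries. The median log2 fold change over the 8 tested members was 0.04 in BSG, 0.05 in M-BSG and 0.08 in M-BSG-Hot, beside -0.017, -0.0070 and 0.0024 over all tested genes.

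**Figure D1:**
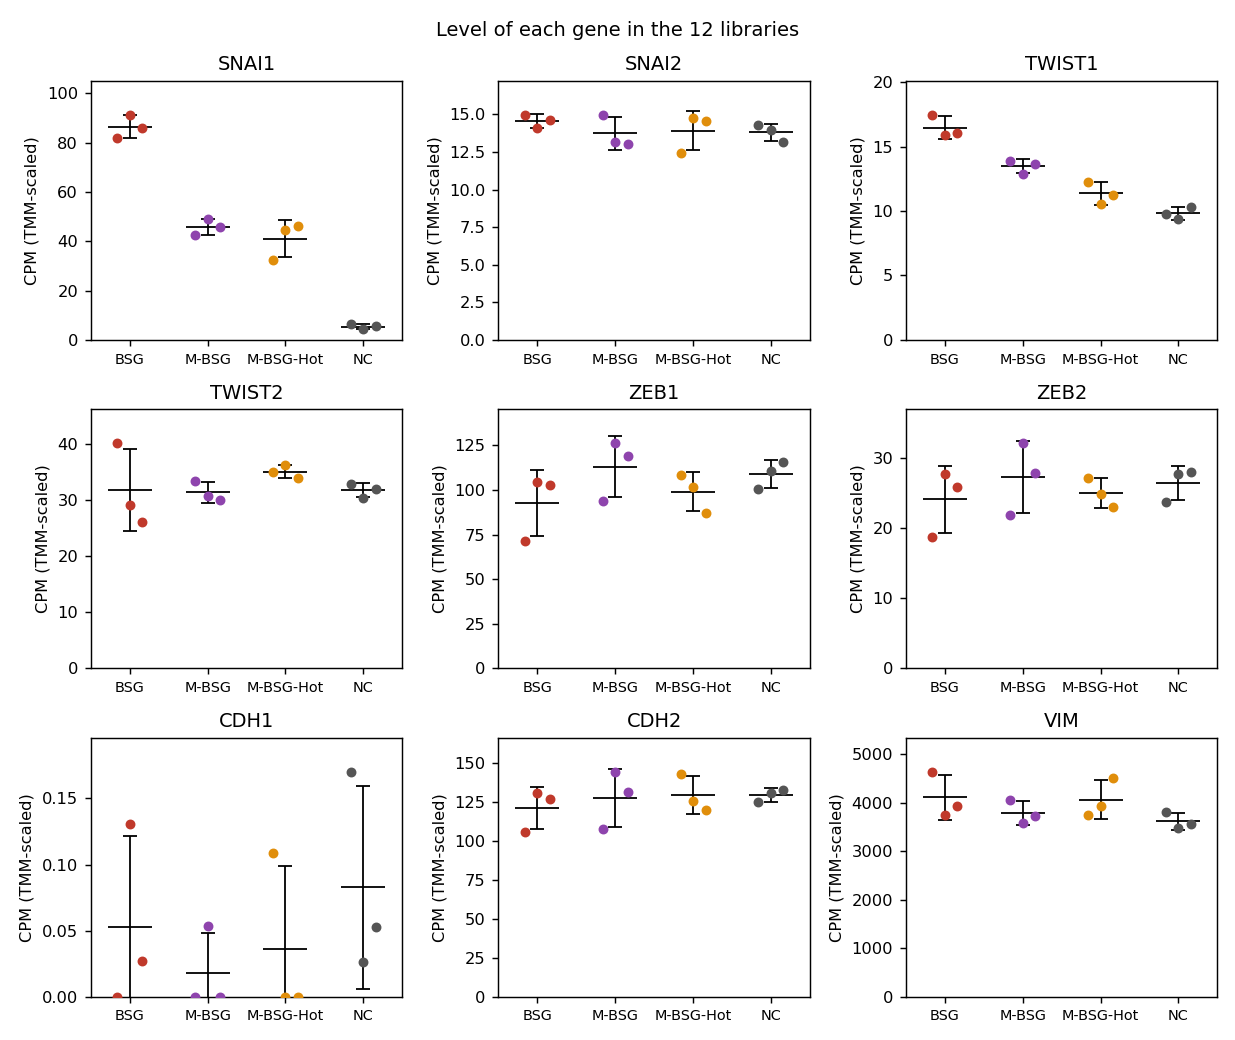
Level of the 9 genes in each library, in TMM-scaled CPM on axes that start at 0; points are libraries, the bar is the group mean and the whiskers are 1 SD (n = 3). SNAI1 lies at 82.1 to 91.3 CPM in BSG and at 4.39 to 6.27 CPM in NC, TWIST1 steps down over the 4 groups, and the groups overlap for most other genes.

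SNAI1 was counted at 82.1, 91.3 and 85.9 CPM in the BSG libraries, 42.5, 49.0 and 45.7 CPM in M-BSG, and 32.6, 44.6 and 46.2 CPM in M-BSG-Hot, against 6.27, 4.39 and 5.50 CPM in NC. Every library of the 3 groups lay above every NC library, and M-BSG-Hot 1 was the lowest of those 9. The log2 fold change against NC was 4.01 in BSG (SE 0.153, adjusted p = 1.93e-09, edgeR quasi-likelihood test), a 16.1-fold difference. It was 3.09 in M-BSG (SE 0.149, adjusted p = 3.26e-08) and 2.93 in M-BSG-Hot (SE 0.148, adjusted p = 4.36e-08), or 8.50-fold and 7.65-fold. Ranked by log2 fold change among the 15407 tested genes, SNAI1 stood at place 76, 83 and 69 from the top in the BSG, M-BSG and M-BSG-Hot comparisons. In RNA pooled from a culture, more SNAI1 RNA per cell and a larger share of cells holding it cannot be told apart.

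SNAI1 also differed between the groups other than NC. M-BSG had 0.529 times the BSG level (log2 fold change -0.92, SE 0.131, adjusted p = 0.0094), a difference that was not called without M-BSG 3 (adjusted p = 0.0837, in a range of 7.74e-08 to 0.0837 over 21 alternative settings). It was 1 of 8 tested members called there, lower, against 0.130% of all tested genes called lower and 0 called higher. M-BSG-Hot had 0.476 times the BSG level (log2 fold change -1.07, SE 0.131, adjusted p = 0.00127). In that comparison 2 of 8 tested members, SNAI1 and TWIST1, were called, both lower, against 0.850% of all tested genes called, 0.753% lower and 0.0974% higher. Between M-BSG-Hot and M-BSG, whose names share M-BSG and 5-MNP-BSG and differ by Hot and a plus sign, the SNAI1 libraries overlapped. The log2 fold change was -0.15 with a 95% interval of -0.43 to 0.13 (adjusted p = 0.819). None of the 8 tested members was called there by edgeR, by DESeq2 or by limma-voom, 1 had an unadjusted p under 0.05 (TWIST1), and 0.694% of all tested genes were called, 0.0974% higher and 0.597% lower.

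SNAI2, or Slug, the close relative of SNAI1 with the same class of zinc fingers, had 14.1 to 15.0 CPM in BSG, 13.1 to 15.0 CPM in M-BSG and 12.4 to 14.8 CPM in M-BSG-Hot, against 13.2 to 14.3 CPM in NC. Its log2 fold changes against NC were 0.078 in BSG (95% interval -0.13 to 0.29), -0.0072 in M-BSG (-0.22 to 0.20) and 0.012 in M-BSG-Hot (-0.20 to 0.22). Each interval ends below the smallest SNAI1 fold change. Per gene length, SNAI1 took most of the summed SNAI1 and SNAI2 signal in 3 of the 4 groups: 88.3% ± 0.862 of their summed FPKM in BSG, 80.9% ± 2.24 in M-BSG and 78.9% ± 1.67 in M-BSG-Hot, against 33.1% ± 3.90 in NC (SD, n = 3 each). The summed level of the pair was 56.3 ± 4.12, 33.0 ± 2.05 and 30.1 ± 4.67 FPKM in those groups, against 9.82 ± 0.566 FPKM in NC.

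TWIST1, which specifies cranial and limb mesenchyme in development, had 17.5, 15.9 and 16.0 CPM in BSG, 13.9, 12.9 and 13.6 CPM in M-BSG and 12.3, 10.5 and 11.3 CPM in M-BSG-Hot, against 9.73, 9.37 and 10.3 CPM in NC. In CPM the 4 groups did not overlap with one another, and their order was BSG, M-BSG, M-BSG-Hot, NC from high to low. In FPKM, which has no TMM scaling, M-BSG-Hot 2 at 6.49 lay below NC 3 at 6.57. Groups that do not overlap were found for 38.7%, 27.5% and 28.0% of all tested genes in the BSG, M-BSG and M-BSG-Hot comparisons with NC. The log2 fold change against NC was 0.75 in BSG (SE 0.0950, adjusted p = 0.000181) and 0.46 in M-BSG (SE 0.0953, adjusted p = 0.0099). The M-BSG call was lost without NC 2 (adjusted p = 0.0613, the highest over 21 settings, which began at 0.000181). In M-BSG-Hot the log2 fold change was 0.21 (95% interval 0.0052 to 0.42) and did not pass after adjustment (adjusted p = 0.281).

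Among the groups other than NC, TWIST1 in M-BSG-Hot was 0.690 times its BSG level (log2 fold change -0.53, SE 0.0944, adjusted p = 0.0152). That call was lost without BSG 1, BSG 2 or BSG 3 (adjusted p = 0.0523, 0.0513 and 0.052), without M-BSG-Hot 2 or M-BSG-Hot 3 (0.0707 and 0.0644), and with only those 2 groups in the fit (0.116). The lowest adjusted p over the 21 settings was 2.67e-05. The M-BSG and BSG libraries did not overlap either, nor did those of M-BSG-Hot and M-BSG, but neither difference passed: the log2 fold changes were -0.29 (adjusted p = 0.635) and -0.25 (adjusted p = 0.428). Groups that do not overlap were found for 8.89% and 13.8% of all tested genes in those comparisons.

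TWIST2, the second TWIST factor, which acts in skin and bone mesenchyme, had 40.2, 29.2 and 26.1 CPM in BSG, 33.5, 30.7 and 30.0 CPM in M-BSG and 35.0, 36.3 and 33.9 CPM in M-BSG-Hot, against 32.9, 30.5 and 32.0 CPM in NC. BSG 1 was the highest library of all 12 and BSG 3 the lowest. The M-BSG-Hot libraries lay just above those of NC and of M-BSG, with log2 fold changes of 0.14 (adjusted p = 0.605) and 0.16 (adjusted p = 0.796). Such separation was found for 28.0% and 13.8% of all tested genes in those comparisons. By FPKM, M-BSG-Hot 3 at 18.0 lay below NC 1 at 18.5. With BSG 1, M-BSG 1 and M-BSG-Hot 3 left out, TWIST2 was called higher in M-BSG-Hot than in BSG (log2 fold change 0.37, adjusted p = 0.0221, the lowest in a range reaching 0.951 over 21 settings), while over all libraries the log2 fold change was 0.14 (adjusted p = 0.645). TWIST1 made up 37.1% ± 4.05 of the summed TWIST1 and TWIST2 FPKM in BSG, 32.4% ± 1.08 in M-BSG and 26.6% ± 1.86 in M-BSG-Hot, against 25.6% ± 0.850 in NC (SD, n = 3 each). TWIST2 remained the more abundant of the pair per gene length in every library, since the highest TWIST1 share was 40.7%, in BSG 3.

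**Figure D2:**
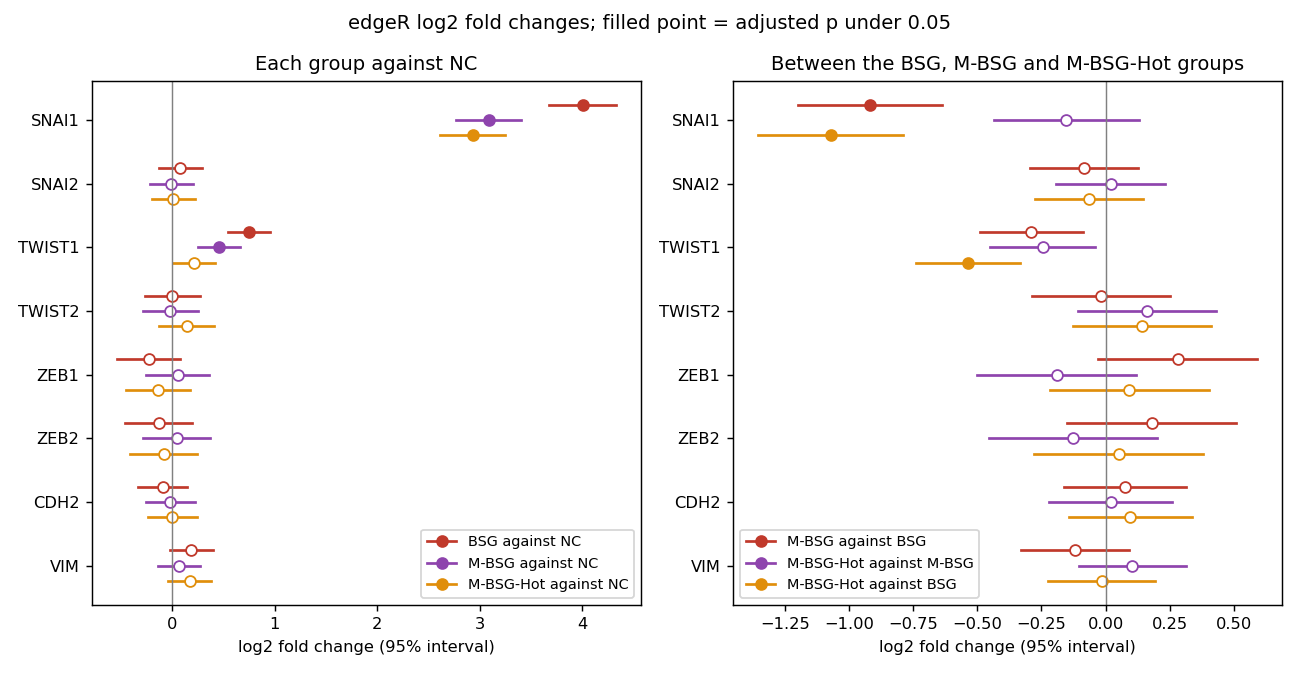
edgeR log2 fold changes of the 8 tested genes with 95% intervals, against NC on the left and between the other 3 groups on the right; filled points have an adjusted p under 0.05. SNAI1 is called in all 3 comparisons with NC at 2.93 to 4.01, TWIST1 in BSG and M-BSG, and the intervals of the other 6 genes include 0 on the left.

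ZEB1 and ZEB2 encode large repressors with zinc fingers at both ends of the protein and, like SNAI1, bind E-boxes. ZEB1 had 71.5, 104.7 and 102.6 CPM in BSG, 93.7, 126.2 and 119.0 CPM in M-BSG and 108.6, 101.6 and 87.0 CPM in M-BSG-Hot, against 100.5, 110.9 and 115.5 CPM in NC. The groups overlapped, and the lowest library of each of the 3 groups other than NC was the one with the highest ribosomal protein share in its group. The log2 fold changes of ZEB1 against NC were -0.23 in BSG (95% interval -0.54 to 0.080), 0.052 in M-BSG (-0.26 to 0.36) and -0.14 in M-BSG-Hot (-0.45 to 0.17). ZEB2 had 18.8 to 27.8 CPM in BSG, 22.0 to 32.1 CPM in M-BSG and 23.0 to 27.2 CPM in M-BSG-Hot, against 23.7 to 28.1 CPM in NC. Its log2 fold changes of -0.13, 0.046 and -0.082 came with adjusted p of 0.579, 0.926 and 0.83. Per gene length ZEB1 made up 81.3% ± 0.389 of the summed ZEB1 and ZEB2 FPKM in BSG, 82.4% ± 0.691 in M-BSG and 81.7% ± 0.590 in M-BSG-Hot, against 82.3% ± 0.414 in NC (SD, n = 3 each).

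ZEB1 has an antisense neighbour, ZEB1-AS1, a long noncoding RNA that overlaps the start of ZEB1 in the RefSeq annotation. It was the only 1 of 4 tested neighbouring or antisense genes to be called. Over all tested genes, 6.22% were called lower than NC in BSG, 3.13% in M-BSG and 3.51% in M-BSG-Hot. ZEB1-AS1 had 6.55, 6.25 and 9.25 CPM in BSG, 8.30, 5.94 and 7.01 CPM in M-BSG and 5.79, 8.29 and 6.52 CPM in M-BSG-Hot, against 13.3, 11.2 and 12.5 CPM in NC, so every library of the 3 groups lay below every NC library. Among all tested genes, 38.7%, 27.5% and 28.0% had groups that do not overlap in the BSG, M-BSG and M-BSG-Hot comparisons. The log2 fold change against NC was -0.75 in BSG (SE 0.176, adjusted p = 0.0151), -0.80 in M-BSG (SE 0.176, adjusted p = 0.0138) and -0.85 in M-BSG-Hot (SE 0.177, adjusted p = 0.0124). The BSG call was lost without NC 1, NC 3 or BSG 1 (adjusted p = 0.0573, 0.054 and 0.0564). The M-BSG call was lost without NC 1, NC 3, M-BSG 2 or M-BSG 3 (0.0624, 0.0534, 0.0634 and 0.0575), and the M-BSG-Hot call without NC 1, M-BSG-Hot 1 or M-BSG-Hot 3 (0.0556, 0.0608 and 0.0602). Over the 21 alternative settings the lowest adjusted p was 0.00105 for BSG, 0.000507 for M-BSG and 0.000247 for M-BSG-Hot. Whether counting used strand is not given in the sources used here, so reads of ZEB1 and ZEB1-AS1 in the shared stretch cannot be told apart and both values are uncertain. The same holds for VIM and VIM-AS1, which had 14.4 to 22.1 CPM over the 12 libraries.

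The stretch before the ZEB1 gene start, which lies within the RefSeq span of ZEB1-AS1, is shown because it also carries E-boxes, beside the matching stretch of VIM, the most abundant of the 9 genes. The VIM stretch likewise lies within the RefSeq span of VIM-AS1. Promoter sequences were matched by symbol for 5 of the 9 genes (TWIST2, ZEB1, ZEB2, CDH2 and VIM) in the RefSeq table of assembly GRCh38.p14; SNAI1, SNAI2, TWIST1 and CDH1 are not shown. The printed stretches are the 250 bases before the RefSeq gene start, 5′ to 3′ on the plus strand, at chr10:31318167-31318416 for ZEB1 and chr10:17227991-17228240 for VIM. Capitals mark E-boxes, CANNTG, a motif that reads as an E-box on both strands.
ZEB1: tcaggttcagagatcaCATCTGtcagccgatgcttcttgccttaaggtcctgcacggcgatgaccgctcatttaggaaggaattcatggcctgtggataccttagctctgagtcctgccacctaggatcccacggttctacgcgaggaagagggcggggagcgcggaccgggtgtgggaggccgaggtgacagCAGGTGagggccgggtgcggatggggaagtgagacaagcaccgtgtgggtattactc
VIM: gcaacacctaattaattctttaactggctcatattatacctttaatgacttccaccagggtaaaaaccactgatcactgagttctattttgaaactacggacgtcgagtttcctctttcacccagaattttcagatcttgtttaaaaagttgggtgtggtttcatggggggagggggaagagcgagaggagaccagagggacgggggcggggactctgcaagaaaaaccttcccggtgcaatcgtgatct
The ZEB1 stretch held 2 E-boxes, CATCTG starting 234 bases and CAGGTG starting 57 bases before the gene start; the VIM stretch held 0. CAGGTG, or CACCTG on the other strand, is the E-box form that SNAI and ZEB proteins are known to favour. Of 35116 windows of the same length in the table, 61.8% held a CANNTG and 17.5% a CAGGTG or CACCTG. Among the other matched windows, ZEB2 held 1 E-box, CACATG, starting 180 bases before the gene start, and TWIST2 and CDH2 held 0. These matches describe the letters of the reference and not binding in these cells.

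CDH1, which encodes the epithelial adhesion protein that SNAI1 is best known for silencing, was near absent in every group. It had 0, 5 and 1 counts in the BSG libraries, 0, 2 and 0 counts in M-BSG and 4, 0 and 0 counts in M-BSG-Hot, against 6, 1 and 2 in NC. The sums were 6, 2 and 4 counts in those groups, against 9 counts in NC over group totals of 107905875 to 113184509 counts. A count of 0 allows up to 3 counts, or 0.0786 to 0.0871 CPM, so a fall of CDH1 below the NC level was not detectable at this depth. CDH2, the cadherin of neural and mesenchymal cells, was at 22.0 FPKM or more in every library, where the highest CDH1 value was 0.0357 FPKM. CDH2 had 105.9, 131.1 and 126.8 CPM in BSG, 107.6, 144.5 and 131.4 CPM in M-BSG and 143.0, 125.9 and 119.9 CPM in M-BSG-Hot, against 124.7, 130.9 and 132.8 CPM in NC. All 4 groups overlapped, and its log2 fold changes against NC were -0.094 (95% interval -0.33 to 0.14), -0.019 (-0.26 to 0.22) and 0.0014 (-0.24 to 0.24) in BSG, M-BSG and M-BSG-Hot.

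VIM, the intermediate filament protein of mesenchymal cells, had 4641, 3752 and 3943 CPM in BSG, 4055, 3580 and 3718 CPM in M-BSG and 3752, 3940 and 4509 CPM in M-BSG-Hot, against 3807, 3483 and 3555 CPM in NC. Its group means were above the NC mean in all 3 groups, with overlapping libraries. The log2 fold changes were 0.19 (95% interval -0.023 to 0.40, adjusted p = 0.211) in BSG, 0.066 (-0.14 to 0.28, adjusted p = 0.796) in M-BSG and 0.17 (-0.039 to 0.38, adjusted p = 0.406) in M-BSG-Hot.

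ZEB1, ZEB2, CDH2 and VIM followed the libraries that stood apart. BSG 1, M-BSG 1 and M-BSG-Hot 3 held the lowest ZEB1, ZEB2 and CDH2 values and the highest VIM value of their groups. In BSG 1 the log2 CPM differed from the mean over 12 libraries by -0.52 for ZEB1, -0.44 for ZEB2, -0.26 for CDH2 and 0.26 for VIM. TWIST1, TWIST2 and SNAI2 were also highest of their groups in BSG 1 and M-BSG 1, but not in M-BSG-Hot 3. SNAI1 went the other way, lowest of its group in BSG 1 and M-BSG 1 (82.1 and 42.5 CPM) and highest in M-BSG-Hot 3 (46.2 CPM). The same 3 libraries had the lowest level of long genes relative to short ones. The median deviation of 4439 genes of at least 6000 bases lay below that of 2921 genes of at most 2000 bases, by -0.60, -0.27 and -0.23 on the log2 scale in BSG 1, M-BSG 1 and M-BSG-Hot 3, while the other 9 libraries ranged between -0.054 and 0.30. The gene length behind the deposited FPKM is 8199 bases for ZEB1, 9265 for ZEB2 and 4584 for CDH2, against 2157 for VIM, 1705 for SNAI1 and 1630 for TWIST1. The part of this shift in the values above was not tested. Without these 3 libraries the members called against NC were again 2 in BSG, 2 in M-BSG and 1 in M-BSG-Hot.

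**Figure D3:**
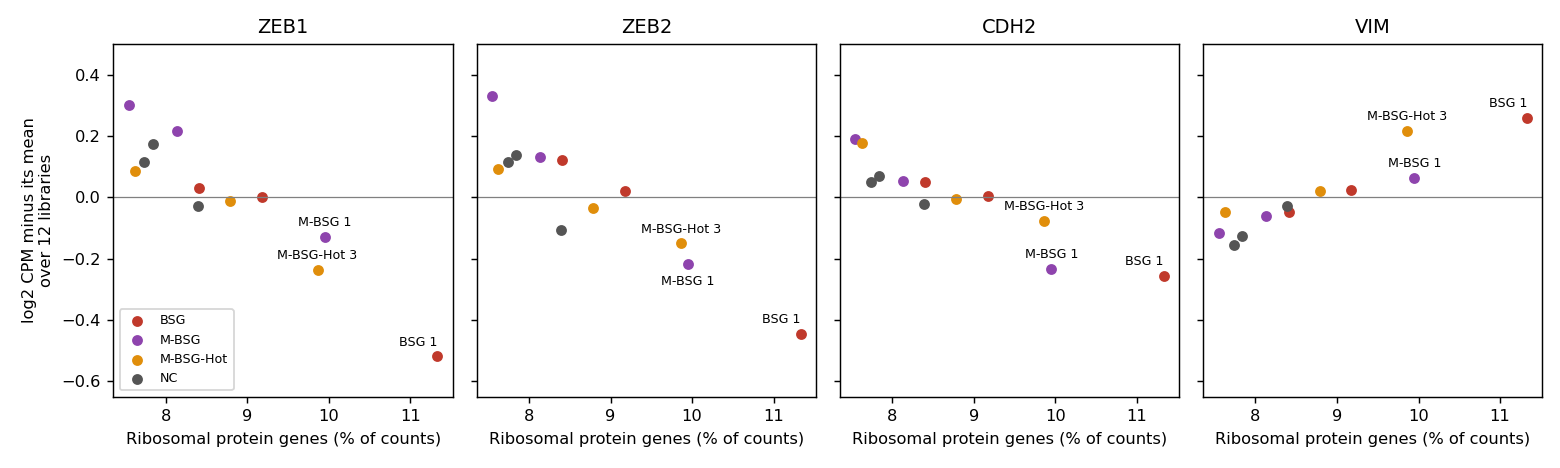
Log2 CPM of ZEB1, ZEB2, CDH2 and VIM in each library, less the mean over 12 libraries, against the percentage of counts in ribosomal protein genes; points are libraries, coloured by group. BSG 1, at 11.3%, has the lowest ZEB1, ZEB2 and CDH2 and the highest VIM.

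Set side by side per gene length, the 9 genes kept much of their order in all groups apart from SNAI1. In BSG the means ran VIM 1866, SNAI1 49.8, CDH2 26.0, TWIST2 17.1, ZEB1 11.2, TWIST1 9.90, SNAI2 6.55, ZEB2 2.57 and CDH1 0.0108 FPKM, with overlap between the libraries of ZEB1 and TWIST1 alone among neighbours. In NC the order was VIM 1735, CDH2 29.3, TWIST2 18.1, ZEB1 13.8, SNAI2 6.56, TWIST1 6.23, SNAI1 3.27, ZEB2 2.96 and CDH1 0.0175 FPKM, and the overlapping neighbours were SNAI2 with TWIST1 and SNAI1 with ZEB2. SNAI1 thus stood at place 2 of 9 in BSG and at place 7 in NC. It stood at place 3 in M-BSG and in M-BSG-Hot, at 26.7 and 23.8 FPKM, where it overlapped with CDH2, and in M-BSG-Hot also with TWIST2. By CPM, which is not divided by gene length, SNAI1 stood at place 4 in BSG, M-BSG and M-BSG-Hot and at place 8 in NC.

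**Figure D4:**
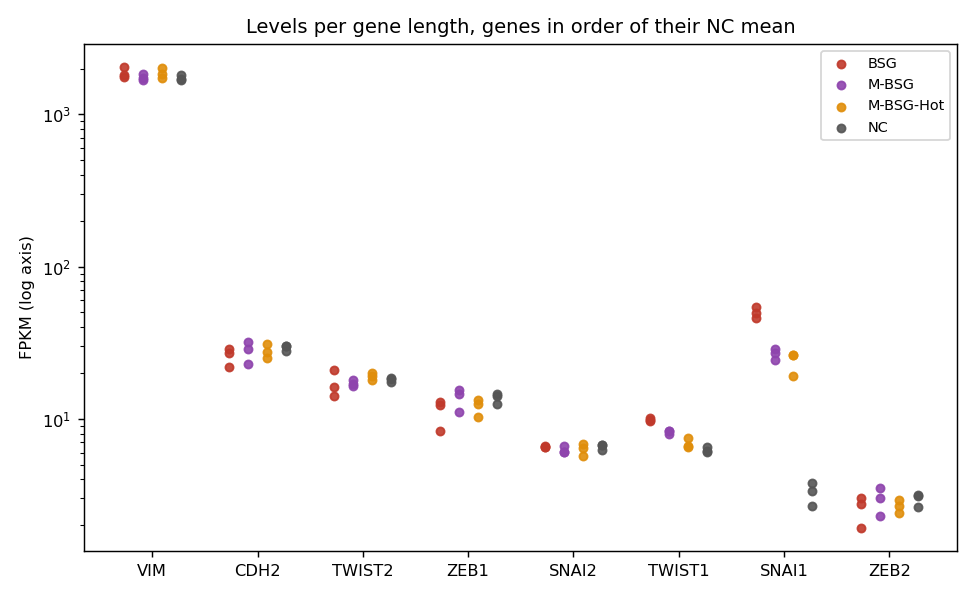
FPKM of 8 of the genes in each library on a log axis, genes ordered by their NC mean and coloured by group; CDH1 is left out because 5 libraries had no count. SNAI1 lies among the lowest genes in NC, at a mean of 3.27 FPKM, and second to VIM in BSG, at 49.8 FPKM.

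The genes whose pattern over the 12 libraries was most like that of SNAI1 were LSMEM1, PRPH, ID4, GPR50 and OVGP1. Likeness was the root mean square difference in log2 CPM, each gene centred on its own mean, over 12995 genes averaging at least 1 CPM. It was 0.30, 0.40, 0.47, 0.48 and 0.51 for the 5 genes, on a scale where the deviations of SNAI1 itself had a root mean square of 1.51. PRPH encodes peripherin, an intermediate filament protein of neurons, and ID4 an inhibitor of helix-loop-helix factors. LSMEM1, the closest, averaged 22.2 CPM in BSG, 12.5 CPM in M-BSG and 7.68 CPM in M-BSG-Hot, against 1.35 CPM in NC. For TWIST1 the closest genes were RDH10, DNAJA1, HSPA14, ND6 and DBR1, at 0.085 to 0.11, where the deviations of TWIST1 had a root mean square of 0.29. Of these, DNAJA1 encodes a heat shock cochaperone and RDH10 a retinol dehydrogenase. RDH10 averaged 18.7 CPM in BSG, 15.2 CPM in M-BSG and 13.3 CPM in M-BSG-Hot, against 11.2 CPM in NC. The libraries of a group share 1 group label, so the likeness describes 4 group levels more than 12 separate ones.

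**Figure D5:**
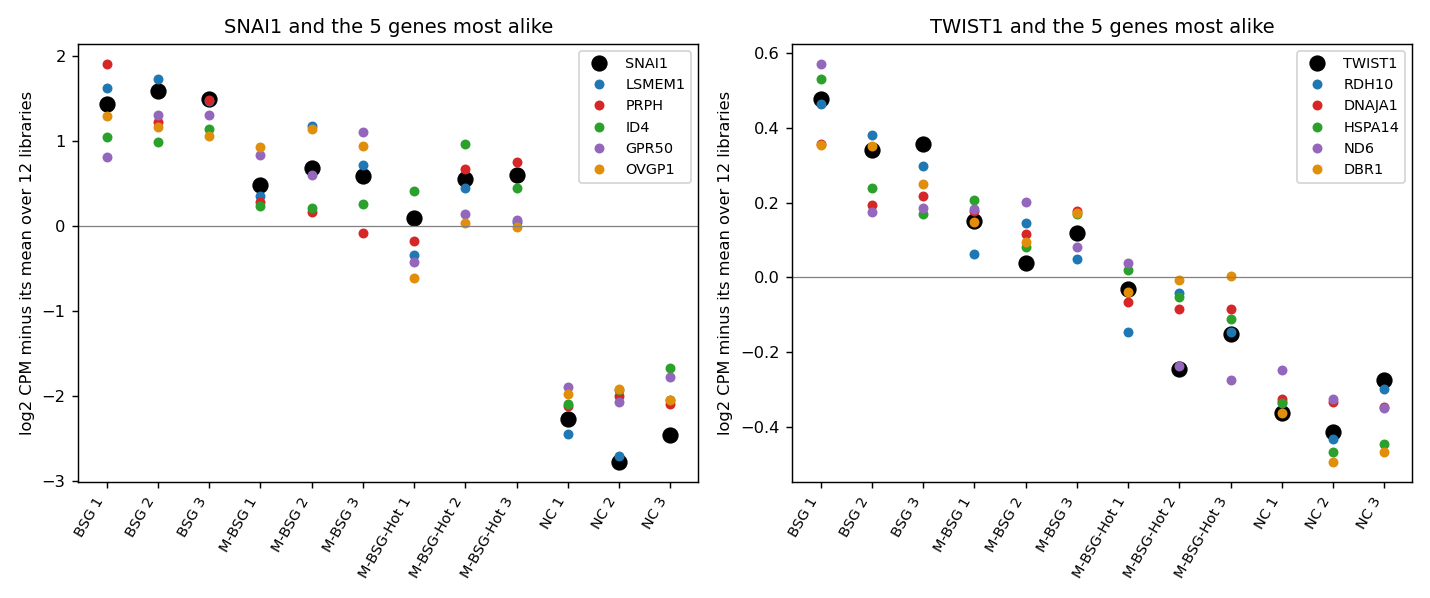
Log2 CPM less its mean over 12 libraries for SNAI1 (left) and TWIST1 (right), in black, with the 5 genes most alike to each; libraries are grouped as BSG, M-BSG, M-BSG-Hot and NC. All 6 genes on the left lie lowest in NC and those on the right step down over the 4 groups.

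Genes around these factors were counted by lists chosen with earlier results of these data known. Of 25 tested transcription factors linked to the mesenchymal state, the forkhead factor FOXC1, the T-box factor TBX3 and the HMG-box factor SOX4 were called higher and SOX9 lower in BSG, and 21 did not pass. The background for these 4 calls was 11.7% of the 15407 tested genes, 5.50% going up and 6.22% going down. The list's median log2 fold change was 0.075, beside -0.017 over all tested genes. FOXC1, which acts in skeletal and eye mesenchyme, had 25.9, 28.3 and 24.5 CPM in BSG, against 15.0, 15.1 and 15.1 CPM in NC (log2 fold change 0.80, SE 0.0983, adjusted p = 0.000121). SOX9, the master factor of cartilage, had 164.7, 173.6 and 171.5 CPM in BSG, against 227.2, 231.1 and 224.0 CPM in NC (log2 fold change -0.42, SE 0.0857, adjusted p = 0.00593). In M-BSG, FOXC1 and TBX3 were higher and SOX9 lower, with log2 fold changes of 0.65, 0.61 and -0.38. For those 3 calls the background was 6.35%, made up of 3.22% going up and 3.13% going down. In M-BSG-Hot edgeR and limma-voom called 0 of the 25, DESeq2 called 2, and 4 had an unadjusted p under 0.05. Calls of TBX3 and SOX4 in BSG were lost in 4 and 5 of 21 alternative settings, those of TBX3 and SOX9 in M-BSG in 6 and 5, at adjusted p of up to 0.134.

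Of 34 tested genes whose proteins act with SNAI, TWIST and ZEB factors or turn them over, edgeR called ID2 and ID4 higher against NC in each of the 3 groups, and the other 32 did not pass. The shares of all tested genes called higher were 5.50% in BSG, 3.22% in M-BSG and 1.40% in M-BSG-Hot. In BSG DESeq2 called 8 of the 34 and limma-voom 3, and 10 had an unadjusted p under 0.05. In M-BSG and M-BSG-Hot both tools called 2. The list holds the corepressors CTBP1, KDM1A, HDAC1 and EZH2, the kinase GSK3B and the ubiquitin ligases BTRC and FBXW7, and its median log2 fold change was 0.016 in BSG, 0.018 in M-BSG and 0.059 in M-BSG-Hot. ID proteins lack a DNA-binding region and hold E proteins, the partners of TWIST factors, away from DNA. ID2 had 48.6, 37.9 and 44.2 CPM in BSG, 23.1, 19.6 and 16.7 CPM in M-BSG and 40.1, 33.7 and 43.4 CPM in M-BSG-Hot, against 1.47, 1.71 and 1.08 CPM in NC. Unlike SNAI1, ID2 was called higher in M-BSG-Hot than in M-BSG (log2 fold change 0.98, SE 0.145, adjusted p = 0.00749). It was lower in M-BSG than in BSG (log2 fold change -1.14, SE 0.145, adjusted p = 0.00471), and both calls were lost without M-BSG 3 (adjusted p = 0.0553 and 0.0568, the highest over the 21 settings). ID4 averaged 5.75 CPM in BSG, 3.22 CPM in M-BSG and 4.24 CPM in M-BSG-Hot, against 0.695 CPM in NC, with log2 fold changes of 3.04, 2.21 and 2.60.

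Of 31 tested mesenchymal genes other than the members, edgeR called 2 higher and 6 lower in BSG, beside the 5.50% and 6.22% of all tested genes. With 1 library left out at a time the counts were 0 to 2 higher and 1 to 6 lower, with 1 or 2 lower without NC 1, NC 2, NC 3 or BSG 1, and with BSG 1, M-BSG 1 and M-BSG-Hot 3 left out 1 higher and 9 lower. The median log2 fold change was -0.19, beside -0.017 over all tested genes. The 5 with the smallest adjusted p were AXL, a receptor kinase (-0.42), ITGB3, an integrin subunit (-0.43), TPM2, a tropomyosin (0.43), COL5A1, a fibrillar collagen chain (-0.39), and ITGA5, the fibronectin receptor subunit (-0.28). The AXL call held in all 21 alternative settings, and those of the other 4 were lost in 3 to 6, at adjusted p of up to 0.126. In M-BSG, AXL was lower at -0.31, a call lost in 11 settings at adjusted p of up to 0.16. In M-BSG-Hot edgeR and limma-voom called 0 of 31, DESeq2 called 1, and 8 had an unadjusted p under 0.05. Without BSG 1, which stood apart as described above, the calls of ITGB3, TPM2, COL5A1 and ITGA5 were lost (adjusted p = 0.0818, 0.0923, 0.0721 and 0.118).

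In BSG and M-BSG, 5.50% and 3.22% of all tested genes were called higher than NC. Of 33 tested epithelial genes, ELF3 and CLDN6 were called higher in BSG and in M-BSG and 0 lower, both at trace levels. Both passed the filter on low counts only through the groups in which they are high, so these 2 calls say nothing of the list. With 1 library left out at a time the list gave 1 to 3 higher in BSG and 0 to 2 in M-BSG. The CLDN6 call was lost in BSG without NC 1, NC 3 or BSG 3 (adjusted p = 0.0661, 0.0786 and 0.0608) and in M-BSG without NC 1, NC 3 or M-BSG 2 (0.0697, 0.0763 and 0.062). The ELF3 call in M-BSG was lost without NC 1, NC 2, NC 3 or M-BSG 2 (0.0627, 0.0717, 0.0702 and 0.0712). Its BSG call was kept in all 20 settings that tested it. That is no support for the call, since the gene entered the main test only through its high groups. ELF3, an epithelial ETS factor, had 16, 39 and 27 counts in BSG, against 1, 1 and 1 in NC. CLDN6, a claudin of embryonic epithelium, had 12, 6 and 16 counts in BSG, against 1, 3 and 1 in NC. In M-BSG-Hot edgeR, DESeq2 and limma-voom called 0 of 33, and 1 had an unadjusted p under 0.05. ELF3 was called lower in M-BSG-Hot than in BSG (3, 1 and 2 counts in M-BSG-Hot), with the same limit from the filter. Among 7 epithelial cell markers in the tables, the summed level was 18.0 to 23.3 CPM in BSG, 15.6 to 19.8 CPM in M-BSG and 16.1 to 18.2 CPM in M-BSG-Hot, against 15.2 to 17.2 CPM in NC. EPCAM gave most of it, CLDN4 averaged 0.923 to 1.17 CPM, and CDH1, KRT5, KRT19, ESRP1 and GRHL2 averaged 0.333 CPM or less in every group, with GRHL2 at 0 in all groups but M-BSG-Hot, where no library had more than 1 count.

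Of 18 tested cadherins and catenins other than the members, PCDH1, CDH24 and CDH4 were called lower in BSG, at log2 fold changes of -0.42, -0.39 and -0.34, and lost in 4, 5 and 12 of 21 settings. Among all tested genes, 6.22% were called lower in BSG. In M-BSG edgeR, DESeq2 and limma-voom called 0 and 2 had an unadjusted p under 0.05. In M-BSG-Hot edgeR and limma-voom called 0, DESeq2 called 1, and 2 had an unadjusted p under 0.05. Of 14 tested intermediate filament genes other than VIM, PRPH was called higher in all 3 groups. Among all tested genes, 5.50%, 3.22% and 1.40% were called higher in BSG, M-BSG and M-BSG-Hot. PRPH averaged 4.29 CPM in BSG, 1.55 CPM in M-BSG and 1.98 CPM in M-BSG-Hot, against 0.295 CPM in NC, with log2 fold changes of 3.85, 2.38 and 2.73. PLEC, a giant linker of filaments, was lower in BSG (log2 fold change -0.59, adjusted p = 0.0318), a call lost in 5 settings.

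Of 36 tested genes of TGF-beta and BMP signalling, pathways that induce SNAI and ZEB factors in many cells, edgeR called SMAD7 and BAMBI higher and ACVR1B lower in BSG, and 33 did not pass. Among all tested genes, 5.50% were called higher and 6.22% lower in BSG, and 3.22% and 3.13% in M-BSG. DESeq2 and limma-voom each called 5 in BSG, and 10 had an unadjusted p under 0.05. SMAD7, an inhibitory SMAD that the pathway itself induces, had 37.4, 45.2 and 41.7 CPM in BSG and 40.9, 43.9 and 41.6 CPM in M-BSG, against 28.7, 29.1 and 32.3 CPM in NC, with log2 fold changes of 0.46 and 0.49. BAMBI, a decoy receptor, was higher in BSG by 0.70 and ACVR1B, an activin receptor, lower at -0.44. INHBB, an activin subunit, was lower in M-BSG at -0.52, a call lost in 7 settings. In M-BSG-Hot edgeR, DESeq2 and limma-voom called 0 of 36, and 6 had an unadjusted p under 0.05.

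The median log2 fold change in BSG was -0.070 over the epithelial list, -0.14 over the cadherins and catenins, -0.021 over the filament genes and -0.13 over the TGF-beta and BMP genes, beside -0.017 over all tested genes. Over the 7 lists the medians ran between -0.050 (mesenchymal genes) and 0.11 (transcription factors) in M-BSG, and between -0.027 (TGF-beta and BMP genes) and 0.095 (cadherins and catenins) in M-BSG-Hot. Between the groups other than NC, few list genes passed. M-BSG against BSG gave ID2 and PRPH, both lower, and M-BSG-Hot against M-BSG gave ID2, higher. M-BSG-Hot against BSG gave FOXC1 and ELF3 lower and PCDH1 higher. PRPH, FOXC1 and PCDH1 lost these calls in 11, 14 and 11 of 21 settings. ELF3 was at trace counts and passed the filter on low counts only through the groups in which it is high. The shares of all tested genes called were 0.130%, 0.694% and 0.850% in those comparisons, in the same order. Of the markers of other cell types, the 5 immune ones in the tables summed to 120.2 to 166 CPM over the 12 libraries, nearly all of it CD68, a lysosomal protein that averaged 133.0 to 142 CPM in a group. CD14 averaged 1.80 CPM in BSG, 1.13 in M-BSG and 0.613 in M-BSG-Hot, against 0.539 in NC, and LYZ and CSF1R averaged 0.199 CPM or less in every group. The 6 endothelial ones summed to 15.6 to 20.3 CPM, mostly ERG. CD14 was called higher in BSG and M-BSG, at means of 1.80 and 1.13 CPM, against 0.539 CPM in NC, the M-BSG call being lost in 13 of 21 settings. Over all tested genes, 5.50% and 3.22% were called higher in those comparisons. CD14 was also called lower in M-BSG-Hot than in BSG by edgeR (log2 fold change -1.55, adjusted p = 0.017), a call lost in 6 of 21 settings. The share of all tested genes called lower there was 0.753%.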

How the data were processed

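Each library came with 2 deposited tables, whole unnormalised counts by gene symbol and FPKM. The deposited FPKM are those counts over gene length and library total: 100% of the values above 0 give a whole gene length within a relative tolerance of 1e-06. The sources used here give no aligner, counting program or strandedness. GRCm38 and mm10, names of a mouse assembly, stand in the submitters' processing notes, while the symbols are human, so the build used for counting is unsettled. Promoter sequences come from RefSeq GRCh38.p14.

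Counts were tested with edgeR 4.0.16 in R 4.3.3 (TMM factors 0.951 to 1.05, filterByExpr with a minimum count of 10, 1 quasi-likelihood fit over the 12 libraries with a mean for each group). The filter kept 15407 of 24180 genes and 8 of the 9 described genes. Benjamini-Hochberg adjusted p-values run over all tested genes within a comparison, and those under 0.05 are calls. The SE is approximate: the size of the log2 fold change over the root of its F statistic. CPM are TMM-scaled; centred log2 CPM use a prior count of 2. Alternatives used DESeq2 1.42.0 and limma 3.58.1 (limma-voom), other scalings and filters, a replicate block, only the 2 groups compared, and left-out libraries. With 3 libraries against 3, an exact permutation test of 1 gene cannot go below 0.1. Limits from a count of 0 cover counting error only.

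Replicate libraries differed by more than sampling noise (chi-square per degree of freedom of 3.37 to 60.9). The highest values were 60.9 for BSG 1 with BSG 2 and 56.2 for M-BSG 1 with M-BSG 2. All 12 libraries were kept in the main fit. The described genes, gene lists and comparisons were chosen with earlier results of these data known. Named genes are the 9, up to 5 called genes of each list, those of smallest adjusted p, and the 5 genes most alike to SNAI1 and to TWIST1. A called gene of the mesenchymal list is not reported here.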

Additional observations from a re-analysis of the deposited data

How the results depend on the processing

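All SNAI1 calls against NC, and the TWIST1 call in BSG, held in all 21 alternative settings. The members called against NC numbered 2 in BSG in every setting, 1 to 2 in M-BSG (1 without NC 2) and 1 in M-BSG-Hot. Against BSG they numbered 0 to 1 in M-BSG with 1 library left out, and 1 to 2 in M-BSG-Hot. That last count was 1 with only the 2 groups in the fit and 3 with BSG 1, M-BSG 1 and M-BSG-Hot 3 left out, when TWIST2 joined. Of 672 recomputed log2 fold changes of the members, 44 turned sign, all of values near 0 that were not called before or after, between -0.21 and 0.10; the cause was not tested. With library size alone as scaling, which moved the median of all tested genes by less than 0.1, SNAI2 was at -0.00089 in BSG and -0.056 in M-BSG-Hot, TWIST2 at -0.082 in BSG, ZEB1 at -0.0040 and ZEB2 at -0.010 in M-BSG, and CDH2 at -0.065 in M-BSG-Hot. SNAI2 in M-BSG was 0.0045 with RLE factors, 0.0046 in DESeq2 and 0.0053 with only 2 groups. TWIST2 in BSG was -0.023 with no filter, -0.00058 with a strict filter, -0.014 with the replicate block and -0.024 in limma-voom; CDH2 in M-BSG-Hot was -0.00071 with no filter, -0.0089 with a strict filter and -0.0022 in limma-voom. Without BSG 1, M-BSG 1 and M-BSG-Hot 3, TWIST2 was -0.21 and ZEB2 0.0094 in BSG, CDH2 0.088 in M-BSG and SNAI2 -0.023 in M-BSG-Hot.

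With 1 library left out at a time, the log2 fold changes against NC that turned sign ranged in BSG between -0.19 and 0.12 for TWIST2, -0.25 and 0.027 for ZEB2, and -0.15 and 0.0020 for CDH2. In M-BSG they ranged between -0.064 and 0.028 for SNAI2, -0.057 and 0.015 for TWIST2, -0.034 and 0.18 for ZEB1, -0.086 and 0.19 for ZEB2, and -0.12 and 0.10 for CDH2. In M-BSG-Hot they ranged between -0.021 and 0.089 for SNAI2 and -0.074 and 0.064 for CDH2.

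Counts over all genes moved more. The genes called higher and lower were 847 and 959 in BSG against NC (424 to 1469 and 429 to 1438 over the settings), 496 and 483 in M-BSG (295 to 1047 and 248 to 925), and 215 and 541 in M-BSG-Hot (103 to 451 and 285 to 862). Between the other groups they were 0 and 20 for M-BSG against BSG (0 to 73 and 3 to 38), 15 and 92 for M-BSG-Hot against M-BSG (3 to 47 and 7 to 246), and 15 and 116 for M-BSG-Hot against BSG (1 to 96 and 49 to 295). Of 1764 recomputed counts of list genes, an alternative added after seeing the data, 196 moved by over 1.5 times.

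Replicate numbers are shared between groups, but same-numbered libraries did not deviate together in every pair (correlations of -0.287 to 0.408). With the replicate block the same numbers of members were called in all 6 comparisons, and SNAI1 in BSG against NC was 4.00 on the log2 scale. CDH1 is limited by depth, with 0 to 6 counts per library.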
